A study of Mus musculus with 4 samples.

Results

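The genes described here are 10 genes of antigen presentation by major histocompatibility complex (MHC) class II: H2-Aa, H2-Ab1, H2-Eb1, H2-DMa, H2-DMb1, H2-DMb2, H2-Oa, H2-Ob, Cd74 and Ciita. They were found by gene name among the non-control spots of 4 arrays. These hold 19 probes of the 10 genes, of 56605 probes in all, and the whole table left 19325 genes after a filter on dim probes. The genes were listed with their difference between the genotypes already known. Their genotype differences below are therefore a description, with no test.

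Total RNA of whole colon from C57BL/6 mice was labelled with Cy3 and hybridised to one-colour Agilent arrays, 1 array per sample. All mice had drunk dextran sulphate sodium (DSS), a compound that damages the lining of the gut, and tissue was collected on day 5. The 2 control samples carried floxed Junb alleles (Junbfl/fl) and no Cre. The 2 mutant samples carried the same alleles with a Cre transgene driven by Cd4 (Junbfl/flCd4-Cre). Cd4-Cre acts in cells of the T lineage, so the other cells of the mutant colon keep Junb, which encodes an AP-1 transcription factor. The controls carry no Cre, so the transgene and the loss of Junb cannot be told apart. The labels give neither age nor sex, and sex-linked genes, given with the probes, show the 2 samples of a genotype to be from different mice. The series set out to describe the more severe DSS colitis of the mutants.

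Class II molecules are pairs of an alpha and a beta chain that show peptides from taken-up proteins to CD4 T cells. B cells, dendritic cells and macrophages make them at all times, and epithelial cells of the gut make them when interferon gamma is present. The invariant chain, encoded by Cd74, escorts new class II molecules and fills their groove. DM exchanges the last invariant chain fragment for a peptide, and DO, made mainly by B cells, inhibits DM. Ciita is the transactivator that class II promoters need. It binds no DNA itself and docks on factors at a conserved set of promoter boxes, called S, X and Y.

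That promoter layout is common to members that differed in opposite directions between the genotypes, so the stretches are shown before the values. Promoter sequence came from RefSeq on GRCm38.p6 as the 250 bases before each annotated start. Of the 10 members, 7 had an entry. The search was for AAC followed by TGATTGG, with 28 to 31 bases from the first A of AAC to the A of ATTGG. AAC lies within the X box, and TGATTGG is the Y box, which is bound by NF-Y. The letters and the spacing were chosen after reading the members' own promoters, so the members' matches are no test. The pair was found in 6 of the 7 members, and in 130 of 32851 promoters of the table, or 0.396%, on either strand. TGATTGG alone was in 2375 promoters, or 7.23%. Capitals mark AAC and TGATTGG, and each stretch reads in the direction of its gene.
H2-Aa, chr17:34287852-34287917, minus strand: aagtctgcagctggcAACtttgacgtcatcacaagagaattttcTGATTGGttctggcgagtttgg
H2-Eb1, chr17:34305763-34305827, plus strand: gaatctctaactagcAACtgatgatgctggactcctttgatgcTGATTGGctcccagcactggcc
H2-DMb1, chr17:34153084-34153149, plus strand: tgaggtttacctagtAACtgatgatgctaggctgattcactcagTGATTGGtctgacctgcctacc
H2-DMb2, chr17:34145113-34145178, plus strand: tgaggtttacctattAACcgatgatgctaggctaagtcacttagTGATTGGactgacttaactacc
H2-Oa, chr17:34092290-34092355, plus strand: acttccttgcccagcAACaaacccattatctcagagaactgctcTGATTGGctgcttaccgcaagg
H2-Ob, chr17:34238805-34238867, plus strand: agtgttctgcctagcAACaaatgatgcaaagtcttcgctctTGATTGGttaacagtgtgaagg

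The spacing was 31 bases in H2-Aa, H2-DMb1, H2-DMb2 and H2-Oa, 30 in H2-Eb1 and 28 in H2-Ob. The A of ATTGG lay 43 to 90 bases before the annotated start. The stretches of H2-DMb1 and H2-DMb2 were identical at 57 of 66 bases, or 86.4%. Neither annotated start of H2-DMa had TGATTGG in its window. H2-Ab1, Cd74 and Ciita were not searched. These matches describe letters and do not show binding.

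The signals below are log2 of the processed spot intensity minus the 75th percentile of the same array. A value of 0 is the brightness of that percentile, and 1 unit is a factor of 2. Levels of different probes were not compared, since probes differ in brightness at equal RNA. A difference is the mutant mean minus the control mean with the moderated standard error of limma's fit over all genes (n = 2 and 2 arrays). Limma steadies each gene's spread with that of the other genes. Values of a genotype are given in the order replicate 1, replicate 2. In RNA of a whole tissue, more cells of a type and more RNA per cell cannot be told apart.

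All 10 members had at least 1 probe well above background on every array, and so passed the filter on dim probes without depending on either genotype. Of the 19 probes, 16 passed. At the gene level, with the brightest probe standing for its gene, 7 members had both mutants above both controls, 2 had both mutants below, and in 1 the groups overlapped. Over all 19325 genes, both mutants lay above both controls in 25.7%, below in 17.6%, and apart in either direction in 43.2%. The members were chosen on this contrast, so nothing is read from their count against those shares. The median difference over the 10 members was 0.65, beside 0.02 over all genes. No gene of the array passed a limma Benjamini-Hochberg adjusted p of 0.05, and 1796 genes (9.29%) had an unadjusted p below it, 5.31% of all genes on the higher and 3.98% on the lower side.

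**Figure D1:**
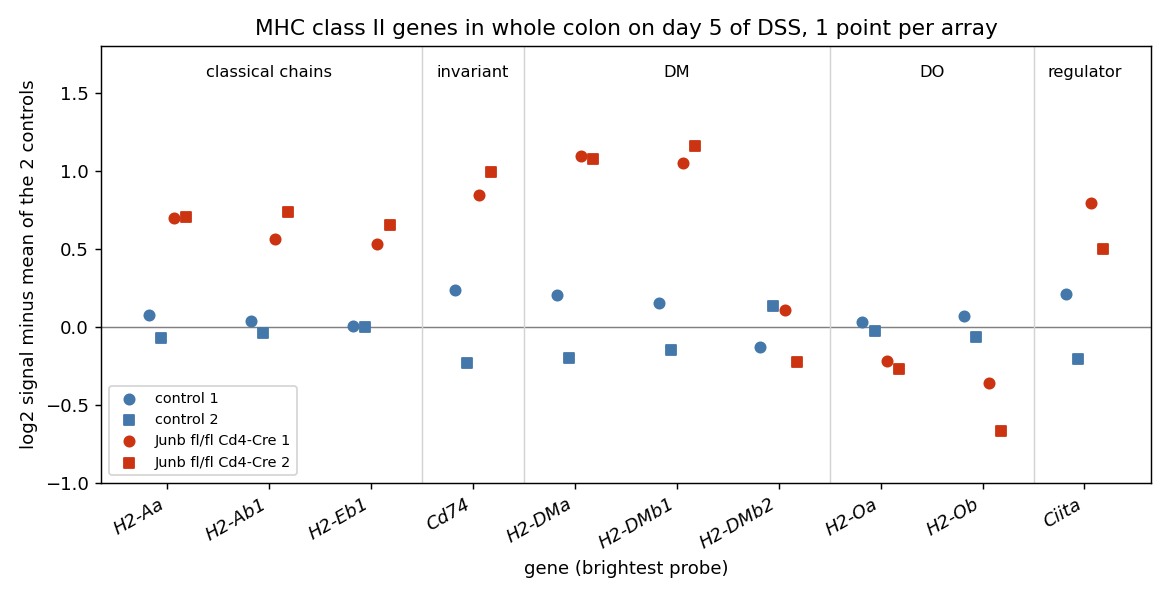
Log2 signal of the 10 members on each array, minus the mean of the 2 controls of that gene; 1 point per array, blue for controls and red for mutants, circles for replicate 1 and squares for replicate 2. The mutants lie above the controls for H2-Aa, H2-Ab1, H2-Eb1, Cd74, H2-DMa, H2-DMb1 and Ciita, below them for H2-Oa and H2-Ob, and among them for H2-DMb2.

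The classical chains, which carry peptide to the cell surface, were all higher in the mutants by about the same amount. After quantile normalization the amounts were less alike, at 0.65 for H2-Aa, 0.425 for H2-Ab1 and 0.33 for H2-Eb1. H2-Aa, the alpha chain of I-A, had a log2 signal of 2.24 and 2.10 on the control arrays, against 2.87 and 2.87 on the mutant arrays. Both mutants were above both controls, and the difference was 0.70 ± 0.11 (SE, n = 2 and 2), or 1.62-fold. Its 1 probe lies at chr17:34421285-34421344 on mm9, the build of the array files.

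H2-Ab1, the beta chain of I-A, gave 6.12 and 6.05 on the control arrays, against 6.65 and 6.82 on the mutant arrays. The groups did not overlap, and the difference was 0.65 ± 0.11, or 1.57-fold. Its 4 probes all passed the filter and all had the mutants above the controls. Their differences ran from 0.65 to 0.79. The 2 brightest, starting at positions 34406296 and 34406305 of chromosome 17 (mm9), overlap and so are nearly 1 measurement. The probe at chr17:34406059-34406118 gave 0.73 ± 0.11. The probe at chr17:34404357-34404416 gave 0.79 ± 0.12.

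H2-Eb1, the beta chain of I-E, gave 5.67 and 5.67 on the control arrays, against 6.20 and 6.32 on the mutant arrays. The controls were almost equal, the mutants were both higher, and the difference was 0.59 ± 0.10, or 1.51-fold. C57BL/6 mice carry the b haplotype, in which the alpha chain of I-E is a pseudogene. The array's 1 probe for that gene, H2-Ea-ps, was above background on 0 of the 4 arrays. H2-Eb1 was thus measured as RNA where its partner chain was not detected.

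Cd74, the invariant chain, gave 5.27 and 4.81 on the control arrays, against 5.88 and 6.03 on the mutant arrays. Both mutants were higher, although the controls lay further apart than those of the classical chains. The difference was 0.92 ± 0.18, or 1.89-fold. Between arrays of replicate number 1 it was 0.61, and between those of number 2 it was 1.23. Within each array, Cd74 minus the mean of the classical chains differed by 0.27 between the genotypes, with the controls at 0.20 and -0.20 around their mean and the mutants at 0.25 and 0.30. The higher control and the lower mutant lay close together in this ratio.

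Of the 3 genes of DM, the peptide exchange factor, H2-DMa and H2-DMb1 had the largest differences among the members by brightest probe. H2-DMa, the alpha chain of DM, gave 0.44 and 0.04 on the control arrays, against 1.33 and 1.31 on the mutant arrays. Both mutants were above both controls by more than the controls differed, and the difference was 1.08 ± 0.17, or 2.12-fold. H2-DMb1, a beta chain, gave 2.78 and 2.48 on the control arrays, against 3.68 and 3.79 on the mutant arrays. The groups again did not overlap, at 1.102 ± 0.141, or 2.15-fold. A second H2-DMb1 probe was above background on 0 arrays.

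H2-DMb2, the other beta chain gene, differed from H2-DMb1 in this pattern. It gave -2.99 and -2.72 on the control arrays, against -2.75 and -3.08 on the mutant arrays. The groups overlapped, and the difference was -0.06 ± 0.26. Its processed intensity was 41.4 and 49.7 on the control arrays, against 46.1 and 31.6 on the mutant arrays, which is dim though above background on all 4 arrays. The sign of so small a difference depended on the processing, with 0.02 after normexp correction and 0.03 after quantile normalization. H2-DMb1 minus H2-DMb2 within an array was higher by 1.16 in the mutants. Centred on the control mean, this ratio was 0.29 and -0.29 on the control arrays, against 0.94 and 1.38 on the mutant arrays. Its probe, shown because the paralogue behaved differently, is at chr17:34284764-34284823 (mm9).
H2-DMb2 probe: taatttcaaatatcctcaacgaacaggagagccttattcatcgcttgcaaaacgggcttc
Whether RNA of either beta chain gene binds the other's probe was not tested.

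The subunits of DO, the inhibitor of DM, were both lower in the mutants. H2-Oa, the alpha chain, gave -0.29 and -0.35 on the control arrays, against -0.54 and -0.59 on the mutant arrays. Both mutants were below both controls, although the gap was small, at -0.24 ± 0.13, and controls were 1.19-fold over mutants. Both replicate numbers gave close values, -0.25 and -0.24. H2-Ob, the beta chain, gave -0.90 and -1.04 on the control arrays, against -1.33 and -1.64 on the mutant arrays. The groups did not overlap, at -0.52 ± 0.18, with controls 1.43-fold over mutants.

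A second H2-Ob probe repeated that direction in a dimmer range. It gave -3.40 and -3.34 on the control arrays, against -3.80 and -3.90 on the mutant arrays, a difference of -0.48 ± 0.27. The remaining H2-Ob probe was above background on 0 arrays. The DO probes are printed because they carry the members' lower signals. The brighter H2-Ob probe covers 60 bases of RNA over 369 bases of the genome, at chr17:34380481-34380849, and the second lies at chr17:34378131-34378190. The H2-Oa probe lies at chr17:34232033-34232092 (all mm9).
H2-Oa probe: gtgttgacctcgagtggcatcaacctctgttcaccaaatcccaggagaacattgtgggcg
H2-Ob probe, brighter: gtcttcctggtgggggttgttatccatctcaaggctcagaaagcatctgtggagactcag
H2-Ob probe, second: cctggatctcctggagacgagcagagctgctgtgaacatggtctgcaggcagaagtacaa

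H2-DMa and H2-DMb1 thus lay apart from DO in opposite directions in the same RNA. The mean of H2-DMa and H2-DMb1 minus the mean of H2-Oa and H2-Ob was 0.13 and -0.13 in the controls, around the control mean, and 1.36 and 1.58 in the mutants. That is a difference of 1.47, or a 2.78-fold higher ratio. With H2-DMb2 counted in DM it was 1.09, or 2.13-fold. The same mean of H2-DMa and H2-DMb1 minus the classical chains was 0.14 and -0.14 on the control arrays, against 0.48 and 0.42 on the mutant arrays, a difference of 0.45, or 1.36-fold. This excess over the classical chains rested on leaving out H2-DMb2, a choice made after its values were seen. With all 3 DM genes it was 0.06, and the lower mutant, at -0.03, lay between the controls, at 0.04 and -0.04. A ratio within an array does not depend on the scaling between arrays by the percentile, and it shows unequal differences only.

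Ciita, the transactivator, gave 2.43 and 2.02 on the control arrays, against 3.02 and 2.72 on the mutant arrays. Both mutants were above both controls, and the difference was 0.65 ± 0.19, or 1.56-fold. This lay among the differences of the classical chains, from 0.59 to 0.70. The spread within a genotype was the widest of the 10 members, with an SD of 0.25.

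Ciita was read by 4 probes on chromosome 16, and 3 passed. The brightest lies at chr16:10526458-10526517 and the second at chr16:10525904-10525963 (mm9). The second gave -1.67 and -2.42 on the control arrays, against -0.89 and -1.53 on the mutant arrays, a difference of 0.83 ± 0.35. The genotypes were apart, though the lower mutant lay close to the higher control. The next, far upstream at chr16:10492271-10492330, gave -1.85 and -3.07 on the control arrays, against -1.03 and -1.46 on the mutant arrays, at 1.21 ± 0.43. The fourth, at chr16:10512788-10512847, was above background on 0 arrays. Ciita has several promoters used by different cell types, and the probes were not assigned to them here.

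**Figure D2:**
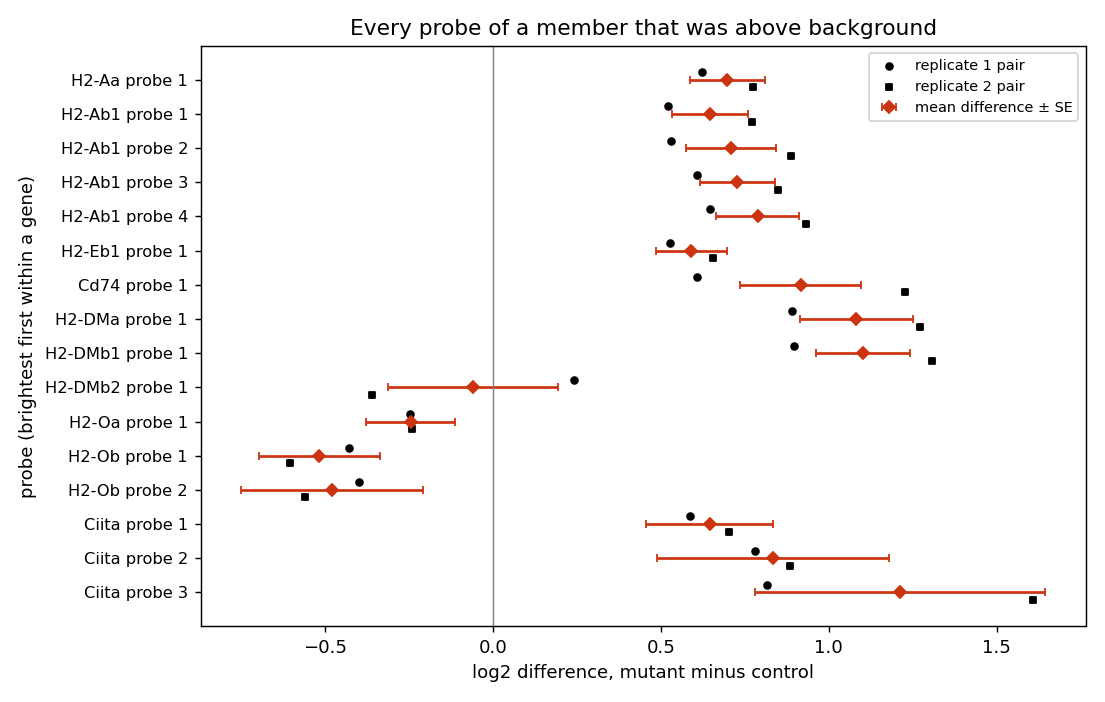
Log2 difference, mutant minus control, for each of the 16 member probes that passed the filter, brightest first within a gene; red diamonds give the mean with its moderated standard error, and black points the difference between arrays of the same replicate number. Of these probes 12 lie above 0 with both points, H2-Oa and both H2-Ob probes lie below, and only H2-DMb2 has a point on either side.

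Among the 16 probes that passed, 15 had the genotypes apart, and those of a gene pointed the same way. At the gene level 43.2% of all genes were apart. The members were chosen on this contrast and probes of a gene read the same gene, so nothing is read from this count. The difference between arrays numbered 2 was larger than that between arrays numbered 1 for each of the 7 members that were higher. The members' median was 0.56 between arrays numbered 1 and 0.74 between arrays numbered 2. These numbers also separated the sexes as read from the arrays. Xist, made from the inactive X chromosome, was at -0.55 and -6.13 on the control arrays, against -0.77 and -6.43 on the mutant arrays. Eif2s3y, on the Y chromosome, was at -6.08 and 0.20 on the control arrays, against -6.20 and -0.11 on the mutant arrays. Number 1 thus read as female and number 2 as male in both genotypes, so each of these differences is within 1 sex, over 1 array per genotype.

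Most members lie side by side in the class II region of chromosome 17, among genes with other functions. From H2-Oa to Btnl2, RefSeq (GRCm38.p6) lists 17 genes, 8 of them members. Of the 9 others, 8 were tested, and 6 had both mutants above both controls, 1 below and 1 overlapping. Over all genes these shares were 25.7%, 17.6% and 56.8%. The immunoproteasome subunits and peptide transporters of class I presentation lie between the DM and DO genes. Psmb9 differed by 0.83 ± 0.15 and Tap1 by 0.79 ± 0.15, each with a limma Benjamini-Hochberg adjusted p of 0.418. Psmb8 differed by 0.59 ± 0.16 (limma adjusted p = 0.428) and Tap2 by 0.43 ± 0.10 (limma adjusted p = 0.418).

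The lower members were not neighbours. H2-Oa opens the region beside Brd2, a chromatin reader, at 0.11 ± 0.10. H2-Ob lies between Tap2 and the long noncoding RNA Gm20506, whose arrays overlapped. H2-Eb2, a lowly expressed beta chain gene next to H2-Eb1, had both mutants below both controls, at -0.32 ± 0.24 (limma adjusted p = 0.694). Its probe was dim, and the size depended on the processing, with -0.08 after normexp correction and -0.12 without mutant replicate 2. Btnl2, a butyrophilin at the far end, differed by 0.45 ± 0.19 (limma adjusted p = 0.565). Adjacent genes thus differed in sign, as at Tap2 and H2-Ob or at H2-Eb1 and H2-Eb2, and these contrasts between neighbours were not tested.

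**Figure D3:**
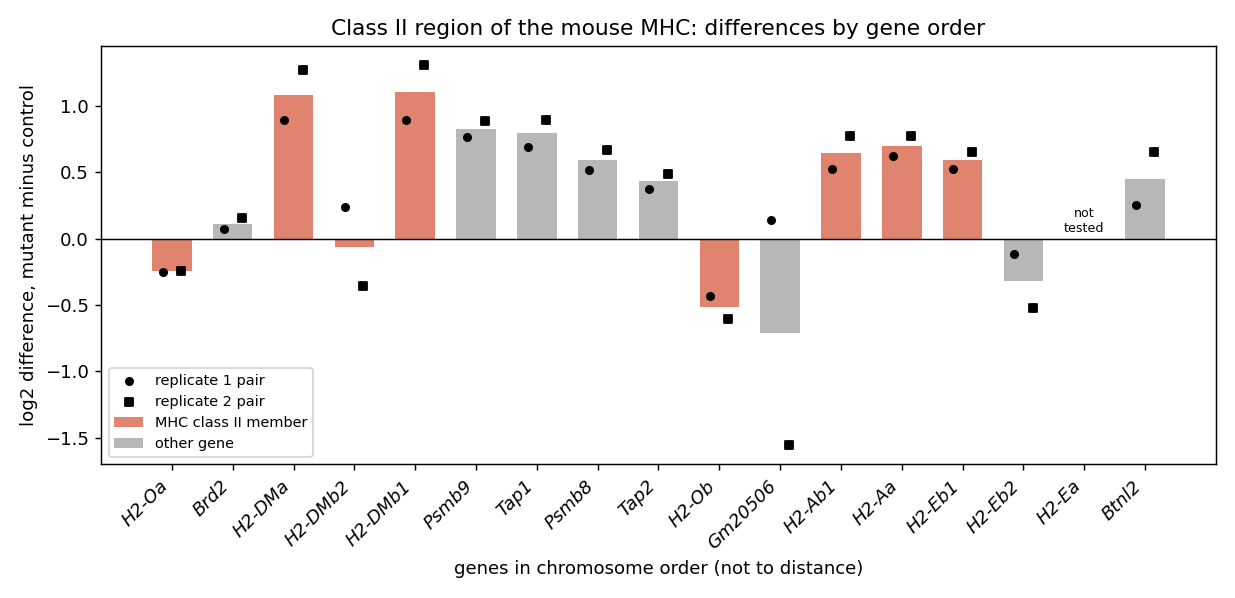
Log2 difference, mutant minus control, of the 17 genes from H2-Oa to Btnl2 in chromosome order, not to distance; bars give the mean over 2 arrays per genotype, points the difference between arrays of the same replicate number, red bars the class II members and grey bars other genes. H2-Oa and H2-Ob lie below 0 with both points, while the genes between them, other than H2-DMb2, lie above.

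The genes of the pathway other than the members were taken from lists of promoter factors, lysosomal enzymes, turnover, co-stimulation, interferon gamma signalling, lineage factors, other class II loci and class I genes. Of 41 genes, 39 were tested. No gene passed an adjusted p of 0.05 (limma, Benjamini-Hochberg over all genes), and 5 of the 39 (12.8%) had an unadjusted p under 0.05, all of them higher, beside 9.29% of all genes. The genotypes overlapped in 22 (56.4%), beside 56.8% of all genes. Their median difference was 0.10, beside 0.02 over all genes.

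The factors that hold Ciita at the promoters had small differences. The list of 7 (Rfx5, Rfxap, Rfxank, Nfya, Nfyb, Nfyc and Creb1) had a median of 0.13, with 5 higher and 2 lower. Rfxank, a subunit of the RFX complex on the X box, differed by -0.19 ± 0.13. Nfyb and Nfyc, subunits of NF-Y on the Y box, differed by 0.20 ± 0.15 and 0.13 ± 0.11, and the 4 probes of Nfyb ranged from -2.09 to 0.20. None had an unadjusted limma p under 0.05.

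Several genes of interferon gamma signalling to Ciita were higher in both mutants. Ifng, the gene of interferon gamma, which induces Ciita, gave -3.21 and -3.85 on the control arrays, against -1.47 and -1.89 on the mutant arrays. Both mutants were above both controls, at 1.85 ± 0.32 (limma Benjamini-Hochberg adjusted p = 0.418). The Ifng probe was dim though above background on all 4 arrays, and its difference was 0.94 after normexp correction, so its size depended on the processing. Socs1, a feedback inhibitor of the receptor's kinases, gave 0.70 and 0.49 on the control arrays, against 2.12 and 1.598 on the mutant arrays, at 1.26 ± 0.21 (limma adjusted p = 0.418). Irf1, a transcription factor that interferon gamma induces, differed by 0.43 ± 0.12 (limma adjusted p = 0.436). Each of these had an unadjusted limma p under 0.05. Irf1 lost that call after quantile normalization, at a difference of 0.18, without control replicate 2, at 0.41, and without mutant replicate 1, at 0.31.

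The receptor chains and kinases of the same list were close to 0. Ifngr1 differed by -0.01 ± 0.10 and Ifngr2 by 0.08 ± 0.14. Jak1 and Jak2 each differed by -0.06, with standard errors of 0.10 and 0.14. The list's median was 0.25. The part that any of these genes plays in the members' signals was not tested.

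Among factors that set Ciita by cell lineage, Irf8, needed by dendritic cells and macrophages, also had an unadjusted limma p under 0.05. It gave 3.62 and 3.44 on the control arrays, against 4.29 and 3.998 on the mutant arrays, at 0.62 ± 0.15 (limma adjusted p = 0.418), and its 2 probes gave 0.62 and 0.38, the second without such a call. Pax5, a B cell factor, was above background on 3 arrays and overlapped between genotypes, at 1.21 ± 0.75. Prdm1, which silences Ciita in plasma cells, differed by -0.08 ± 0.14. Spi1 was above background on 0 arrays.

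Genes of the steps after class II synthesis mostly overlapped between genotypes. Of 8 lysosomal genes that cut antigen or the invariant chain, 7 overlapped, beside 56.8% of all genes, and the median was 0.01. Ctss, the protease that trims the invariant chain in dendritic cells and B cells, differed by -0.06 ± 0.13. Ctsl, its counterpart in thymic epithelium, differed by -0.32 ± 0.20, Ctsz by 0.14 ± 0.11, and Sppl2a, which clears the last Cd74 fragment from the membrane, by 0.10 ± 0.11. The ligases March1 and March8 differed by 0.10 ± 0.23 and 0.09 ± 0.15, and Cd83, which counters March1, by -0.24 ± 0.16. The co-stimulators Cd80, Cd86 and Cd40 differed by 0.12 ± 0.17, 0.06 ± 0.19 and 0.30 ± 0.24. A second Cd86 probe gave 1.14, with an unadjusted limma p under 0.05, and the mean of both gave 0.60. By brightest probe no gene of these lists had an unadjusted limma p under 0.05. Under alternatives such a p was reached by Ctss after quantile normalization, at -0.31, by March1 without control replicate 1, at 0.41, and by Ctsl with the replicate number as a block.

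Nlrc5, which does for class I promoters what Ciita does for class II, differed by 0.57 ± 0.27 (limma adjusted p = 0.591). B2m, the light chain of class I, differed by 0.27 ± 0.12 (limma adjusted p = 0.565), and the class I heavy chain H2-K1 by 0.18 ± 0.13 (limma adjusted p = 0.675). With the replicate number as a block, Nlrc5 and B2m came under an unadjusted limma p of 0.05, as Nlrc5 also did without control replicate 1, at 0.90. All 5 genes of that list were higher, with a median of 0.18, below that of the class II members.

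**Figure D4:**
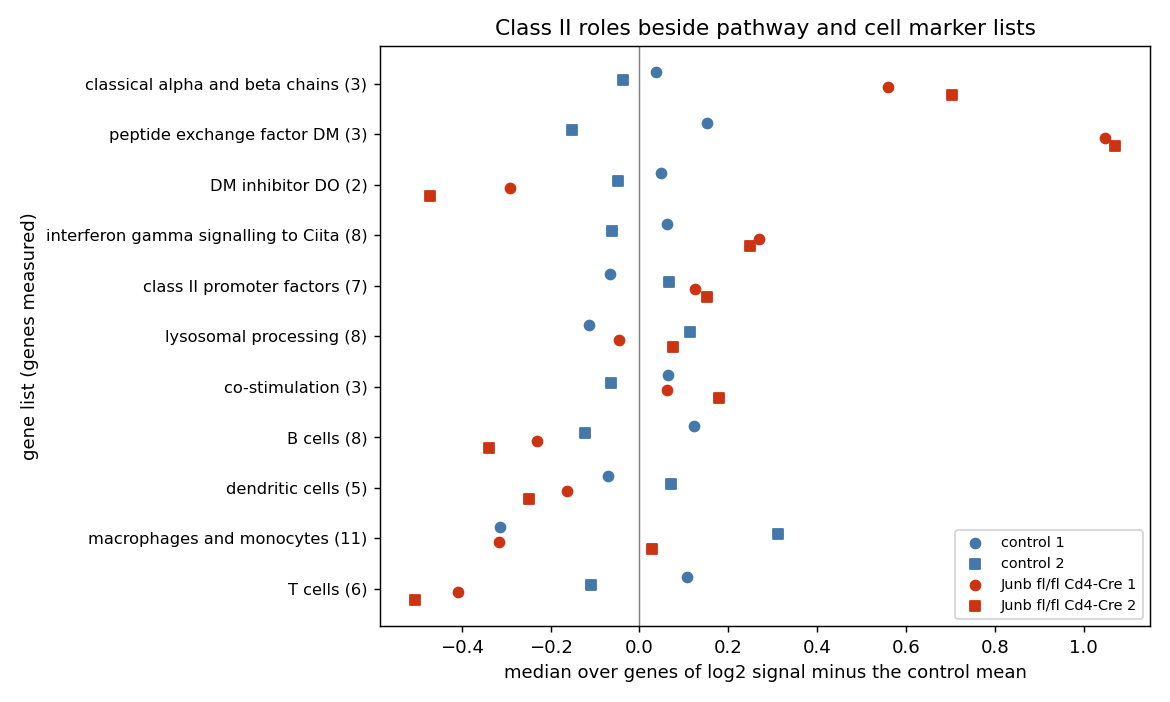
Median over the genes of each list of the log2 signal minus the gene's control mean, 1 point per array, blue for controls and red for mutants; the number of measured genes is in brackets. Classical chains and DM lie to the right in both mutants, DO lies to the left with the B cell, dendritic cell and T cell lists, and the macrophage list overlaps between genotypes.

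Markers of the cells that make class II at all times were not higher as groups. Of 9 B cell genes 8 were tested and all 8 were lower in the mutants, with a median of -0.28. Ms4a1, which encodes CD20, differed by -0.44 ± 0.17 (limma adjusted p = 0.529), Fcrla by -0.32 ± 0.17 and Cd79b by -0.22 ± 0.14. In 5 of the 8 the genotypes were apart and in 3 they overlapped, beside 43.2% and 56.8% of all genes. The summed linear signal of the list, in units of the 75th percentile, was 11.2 and 9.93 on the control arrays, against 9.42 and 7.94 on the mutant arrays, and Blk was above background on 0 arrays.

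The mean of H2-Oa and H2-Ob minus the mean of the B cell genes differed by -0.10 between the genotypes. Centred on the control mean, this ratio was -0.08 and 0.08 on the control arrays, against -0.10 and -0.11 on the mutant arrays. Both mutants lay below both controls, by a difference smaller than the distance between the 2 controls. The part of B cell RNA in the lower DO signal was not tested.

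Of 8 dendritic cell genes 5 were tested. Zbtb46, a marker of conventional dendritic cells, and Xcr1 and Clec9a, which mark only a subset of them, were above background on 0 arrays. Of the 5, 1 was higher and 4 were lower, with a median of -0.26. Itgax, which encodes CD11c, differed by -0.36 ± 0.19, Flt3 by -0.26 ± 0.20, and Cd209a by -1.12 ± 0.89 with overlapping arrays. The summed signal was 3.26 and 3.77 on the control arrays, against 3.08 and 3.01 on the mutant arrays.

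Of 11 macrophage and monocyte genes 9 overlapped, beside 56.8% of all genes. By sign 3 were higher and 8 lower, with a median of -0.13. Cd14, a receptor for bacterial lipopolysaccharide, differed by 0.70 ± 0.10 (limma adjusted p = 0.417), and Mrc1, the mannose receptor of resident macrophages, by -0.64 ± 0.23 (limma adjusted p = 0.512). Ly6c2, a monocyte marker, differed by 0.20 ± 0.22. The summed signal was 168.5 and 149.7 on the control arrays, against 204.9 and 157.5 on the mutant arrays, which overlap. Most of this sum was Ly6c2 alone, at log2 signals of 7.18 and 6.85 on the control arrays, against 7.48 and 6.96 on the mutant arrays. The sum thus describes that gene more than the list. All 8 markers of colon epithelium passed the filter, with a median difference of 0.09, 5 higher and 3 lower. Their summed signal was 1116 and 1111 on the control arrays, against 1061 and 1196 on the mutant arrays. In 5 of the 8 both mutants were above both controls and in 3 the genotypes overlapped, beside 25.7% and 56.8% of all genes. Lgr5, above background on 1 control and both mutants, differed by 1.70 ± 0.48 (limma adjusted p = 0.43). Krt20 differed by 0.15 ± 0.11 and Car1 by -0.20 ± 0.17. Which of these cells carried the members' higher signals was not tested.

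T cells, in which the Cre acts, had 6 of 7 markers tested and all 6 lower, with a median of -0.44. Of these Cd4 was close to 0, at -0.03 ± 0.14, and its arrays overlapped. Lat, an adaptor of the T cell receptor, differed by -0.88 ± 0.20 (limma adjusted p = 0.418) and Cd3d by -0.48 ± 0.15 (limma adjusted p = 0.458). Cd8a, above background on both controls and neither mutant, passed the filter through the controls alone. By the processed signal it was at least 2.71-fold lower in the mutants. Such a bound sets the controls' mean against the higher, per mutant array, of the probe's own signal and the lowest signal well above background. After normexp correction the differences were smaller, at -0.43 for Cd8a, -0.40 for Lat and -0.36 for Cd3d. The bound for Cd8a does not hold under that correction. Junb itself gave 4.23 and 4.39 on the control arrays, against 4.44 and 4.47 on the mutant arrays, at 0.15 ± 0.11 (limma adjusted p = 0.691). In whole colon most cells keep Junb, and where its probes lie relative to the deleted part was not examined, so this does not check the genotype.

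Across the whole array, 27939 to 29091 probes were well above background per array, and saturation affected 0 spots. Between arrays Pearson's r across genes, which are not independent replicates, ran from 0.976 to 0.984. Lists of other cells also differed, with medians of 1.48 for 5 neutrophil genes, -0.63 for 4 smooth muscle genes and -2.14 for 2 adipocyte genes. The neutrophil list was split. In 3 genes, Ltf, S100a8 and S100a9, both mutants were above both controls, beside 25.7% of all genes. The other 2 overlapped, Ly6g at -0.14 ± 0.30 and Csf3r at -0.015 ± 0.13. The 6 housekeeping genes were all higher, with a median of 0.16. The part of these in the members' signals was not tested.

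The members' mean profile over the 4 arrays, each gene centred on its own mean, was -0.16 and -0.33 on the control arrays, against 0.27 and 0.22 on the mutant arrays. Among 17862 other genes above background on all 4 arrays, the 5 nearest by root mean square distance over the 4 arrays included Cdca4 (distance 0.0207), Tiam1 (0.0219) and Slc51b (0.0257). The other 2 carry no gene symbol. With 4 arrays many genes come near any profile, and no shared function is read from this.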

How the data were processed

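The deposited files, per the file headers, are Agilent Feature Extraction output with linear spot intensity values (version 11.5.1.1, per the submitters' processing notes), where the processed signal is background-corrected and flags mark spots well above background. Array normalization is not given in the sources used here. Samples were grouped by the genotype labels, 2 arrays per genotype. Signals are log2 of the processed signal minus that array's 75th percentile, which ranged from 268.5 to 330 intensity units. Outlier spots were left out, with 11 probes that had no clean spot on some array. A probe had to be well above background on at least 2 arrays, and the brightest stood for its gene. R 4.3.3 with limma 3.58.1 gave the differences (lmFit, then eBayes with trend; two-sided; Benjamini-Hochberg over 19325 genes), and the fit was tested on simulated data. The p-values measure the spread between 2 samples per genotype, 1 of each sex by Xist and Eif2s3y. The number of arrays limits the precision.

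The members and lists were chosen with earlier results of these data known. Named genes are all members, up to 3 genes of each list by smallest p, Junb, Xist, Eif2s3y and the 5 nearest profiles. Ctss, Psmb8, Cd4, Ly6g, Csf3r and the receptors and kinases of interferon gamma were added after their values were seen. So were the other genes of the class II region. No gene was named from the lists of plasma cells, plasmacytoid dendritic cells, endothelium, smooth muscle, adipocytes and housekeeping genes. Their medians not given above were 0.04 for plasma cells, -0.06 for plasmacytoid dendritic cells and -0.39 for endothelium. Gene names follow the array design, and mm9 probe coordinates were copied from the files. The exon under each probe was not looked up. A gene of the interferon gamma list is not reported here. All arrays lay on 1 slide in 1 scan.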

Additional observations from a re-analysis of the deposited data

Results flagged for a closer look

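H2-DMb2 moved in opposite directions between the array pairs of the same replicate number, by 0.24 between those numbered 1 (both female by Xist) and by -0.36 between those numbered 2 (both male). Each pair is 1 array per genotype, and the difference between the pairs was not tested. It was the only member whose pairs differed in sign.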

How the results depend on the processing

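Of the 10 members, 9 kept the sign of their difference under every alternative run, with ranges of 0.63 to 0.77 for H2-Aa, 0.42 to 0.73 for H2-Ab1, 0.33 to 0.65 for H2-Eb1, 0.68 to 1.15 for Cd74, 0.88 to 1.28 for H2-DMa, 0.95 to 1.25 for H2-DMb1, -0.27 to -0.19 for H2-Oa, -0.67 to -0.33 for H2-Ob and 0.44 to 0.90 for Ciita. H2-DMb2 ranged from -0.23 to 0.11, higher in 4 and lower in 8 of 12. The members' median ran from 0.51 under quantile normalization to 0.73 without control replicate 1 (0.60 to 0.73 with 1 array left out). The replicate numbers coincide with sex, for which the fit has no term. The labels do not say that they mark a shared litter or day. Across the 19325 genes, replicate 1 minus replicate 2 in the controls correlated at 0.239 with the same difference in the mutants. Genes are not independent replicates. With the replicate number as a block, 46 genes of the array passed the adjusted threshold, against 0 without it and under every other alternative, and 3382 had an unadjusted p under 0.05, against 1796. No pathway gene passed the adjusted threshold with the block, and Nlrc5, B2m and Ctsl came under an unadjusted p of 0.05. The unadjusted count was 3607 without the filter on dim probes, 456 of 6548 genes with the second probe of a gene, and 864 to 2167 with 1 array left out, the lowest without mutant replicate 1. Of 45 pathway and neighbouring genes 9 had an unadjusted p under 0.05, 4 with the second probe, 13 with the block and 6 to 11 with 1 array left out. The filter moved the median of all genes from 0.02 to -0.12 when dropped. The sign turned for Nfyb (-0.41) with the mean of its probes, and for Jak2 with the mean (0.05) or the second probe (0.16). It turned with 1 array left out for March8 (-0.048 to 0.22), March1 (-0.21 to 0.41), Cd80 (-0.005 to 0.25), Cd86 (-0.053 to 0.17), Cd209a (-2.46 to 0.21), Ly6c2 (-0.057 to 0.46), Prdm1 (-0.17 to 0.009), Ctss (-0.19 to 0.064), Ifngr1 (-0.016 to 0.003), Ifngr2 (-0.038 to 0.19) and Jak2 (-0.18 to 0.067). The cause of these was not tested. Leaving out an array leaves a genotype with 1, assumed to vary like the other. The slide as a block was not run, as there was 1 slide. The second probe gave no value for genes with 1 probe that passed.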
